A study of Mus musculus with 9 samples.

Results

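Matrix metalloproteases, the related protease Adamts1 and the tissue inhibitors of metalloproteases (TIMPs) were followed across 3 mouse cell lines on Affymetrix oligonucleotide arrays. The members were 10 genes out of 12394 measured, namely Timp1, Timp2, Timp3, Mmp2, Mmp3, Mmp9, Mmp11, Mmp13, Mmp14 and Adamts1. Every probe set annotated to exactly 1 of these symbols was used, which gave 21 of 22690 probe sets. SV5 NN4 is a stable clone that carries SV40 large T antigen together with added wild-type N-ras, SV5 is a stable clone with SV40 large T antigen alone, and NIH 3T3 is the wild-type mouse fibroblast line from which both derive. Each line had 3 arrays, and all 3 lines grew in the same medium with calf serum. Each transformed line is 1 clone, so the introduced genes and clonal differences cannot be told apart. The arrays measured RNA and not enzyme activity.

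Matrix metalloproteases are zinc enzymes that cut collagens, proteoglycans and other proteins outside the cell, and most are secreted as inactive precursors. Mmp14 sits in the plasma membrane and, with Timp2 as an adaptor, activates the precursor of Mmp2. TIMPs bind the active site of the proteases. Timp3 differs from the other inhibitors in that it is held in the matrix and also blocks several ADAM and ADAMTS enzymes. Fibroblasts are a main source of Mmp2, Mmp14 and the TIMPs, while Mmp3, Mmp9 and Mmp13 are known as genes that cytokines and growth factors induce.

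Levels are given as log2(intensity + 1), on which a difference of 1 is a 2-fold change, and a level is compared only with the same probe set on other arrays. Bacterial Dap, Lys and Trpn control probe sets lay between 3.14 and 4.25 on this scale, a range called the floor here. In each line, 3 of 8 endothelial markers lay within it on all arrays. A level above it therefore need not mean a transcript. The median probe set had a mean level of 5.93. Median intensity per array ran from 56.2 to 62.4 and the upper quartile from 165 to 240. Differences were tested with limma on all 9 arrays, with equal replicate numbers paired, and a probe set was called at a Benjamini-Hochberg adjusted p under 0.05 over all 22690 probe sets. All 10 fibroblast markers lay above the median probe set in every line, and their mean level per array was 10.8 to 11.3 in SV5 NN4, 11.7 to 12.1 in SV5 and 11.1 to 12 in NIH 3T3. The endothelial, epithelial, muscle and macrophage markers, 8 genes each, had mean levels of 4.33 to 5.43, and 8, 7, 7 and 5 of them lay below the median probe set in SV5 NN4. In whole-culture RNA, fewer cells with a transcript and less transcript per cell cannot be told apart.

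The promoters of the 3 members that were called are shown with those of Mmp3 and Mmp13, which lay low on most arrays. RefSeq promoter sequences on GRCm38.p6 were at hand for 8 of the 10 members. The 250 bases before the annotated start are printed 5′ to 3′ on the gene's strand, from chr10:86300162-86300411 (plus strand) for Timp3, chr14:54431348-54431597 (plus strand) for Mmp14, chr16:85803114-85803363 (minus strand) for Adamts1, chr9:7445572-7445821 (plus strand) for Mmp3 and chr9:7272264-7272513 (plus strand) for Mmp13. Capitals mark 3 motifs, each searched on both strands. The site of AP-1 factors was searched as TGANTCA, which they are known to bind in several protease promoters. The box bound by Sp1 was searched as GGGCGG and is called GC box here. The core element found near many start sites was searched as TATAAA.
Timp3: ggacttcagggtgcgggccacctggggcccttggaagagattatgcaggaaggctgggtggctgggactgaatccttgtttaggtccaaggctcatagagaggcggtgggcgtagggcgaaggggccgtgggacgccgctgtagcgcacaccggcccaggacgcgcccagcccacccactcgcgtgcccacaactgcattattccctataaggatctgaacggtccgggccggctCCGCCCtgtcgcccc
Mmp14: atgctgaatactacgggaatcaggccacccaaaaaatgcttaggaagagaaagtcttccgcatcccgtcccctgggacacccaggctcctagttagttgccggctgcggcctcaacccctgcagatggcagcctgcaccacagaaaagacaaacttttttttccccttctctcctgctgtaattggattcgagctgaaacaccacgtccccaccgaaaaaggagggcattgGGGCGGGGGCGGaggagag
Adamts1: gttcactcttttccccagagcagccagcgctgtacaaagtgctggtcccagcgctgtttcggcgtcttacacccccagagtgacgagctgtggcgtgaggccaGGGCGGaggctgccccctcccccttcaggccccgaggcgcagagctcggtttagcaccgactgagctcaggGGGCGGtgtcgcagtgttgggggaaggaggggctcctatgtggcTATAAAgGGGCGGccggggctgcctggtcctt
Mmp3: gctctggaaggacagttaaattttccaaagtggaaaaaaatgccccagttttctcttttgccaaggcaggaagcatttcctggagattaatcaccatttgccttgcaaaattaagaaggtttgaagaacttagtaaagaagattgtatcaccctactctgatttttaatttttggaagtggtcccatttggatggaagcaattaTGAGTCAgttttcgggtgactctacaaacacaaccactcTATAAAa
Mmp13: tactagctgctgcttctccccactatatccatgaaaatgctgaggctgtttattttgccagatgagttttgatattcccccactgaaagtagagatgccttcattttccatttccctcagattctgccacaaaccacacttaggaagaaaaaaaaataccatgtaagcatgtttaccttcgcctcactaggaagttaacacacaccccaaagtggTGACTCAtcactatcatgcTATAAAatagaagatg
The Timp3, Mmp14 and Adamts1 windows held 1, 2 and 3 GC boxes, and that of Adamts1 also held 1 TATAAA. The Mmp3 and Mmp13 windows held no GC box, but each had 1 TGANTCA and 1 TATAAA, with TGANTCA 46 bases before the start in Mmp3 and 35 in Mmp13. Among the other members with a window, Timp1, Timp2 and Mmp11 held GC boxes and neither other motif. Of these Mmp11 also lay low, with line means of 4.92 to 5.01. Of 32851 promoter windows of the same length, 32.7% held a GC box, 6.75% held TGANTCA and 12.4% held TATAAA. A match of letters is a description of the sequence and not a measured binding site.

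SV5 NN4 had lower levels of Timp3, Adamts1 and Mmp14 than SV5, while Timp1, Timp2, Mmp2, Mmp3, Mmp9, Mmp11 and Mmp13 were not called. The comparison sets T antigen-transformed cells with added N-ras against those without it. Of the 21 probe sets, 4 fell and 0 rose in the paired limma fit, against 0.864% of all probe sets called in either direction and 0.555% called lower. Without the replicate block 2 were called, against 0.0837% of all probe sets. At an unadjusted p under 0.05, 8 were lower and 1 was higher, against 6.34% and 6.64% of all probe sets. The groups of arrays did not overlap at 9 of the 21, against 7.93% of all probe sets. The median difference was -0.43 over the 21 probe sets and 0.0082 over all probe sets, but over the brightest probe set of each gene it was -0.026, with 5 genes lower and 5 higher.

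**Figure D1:**
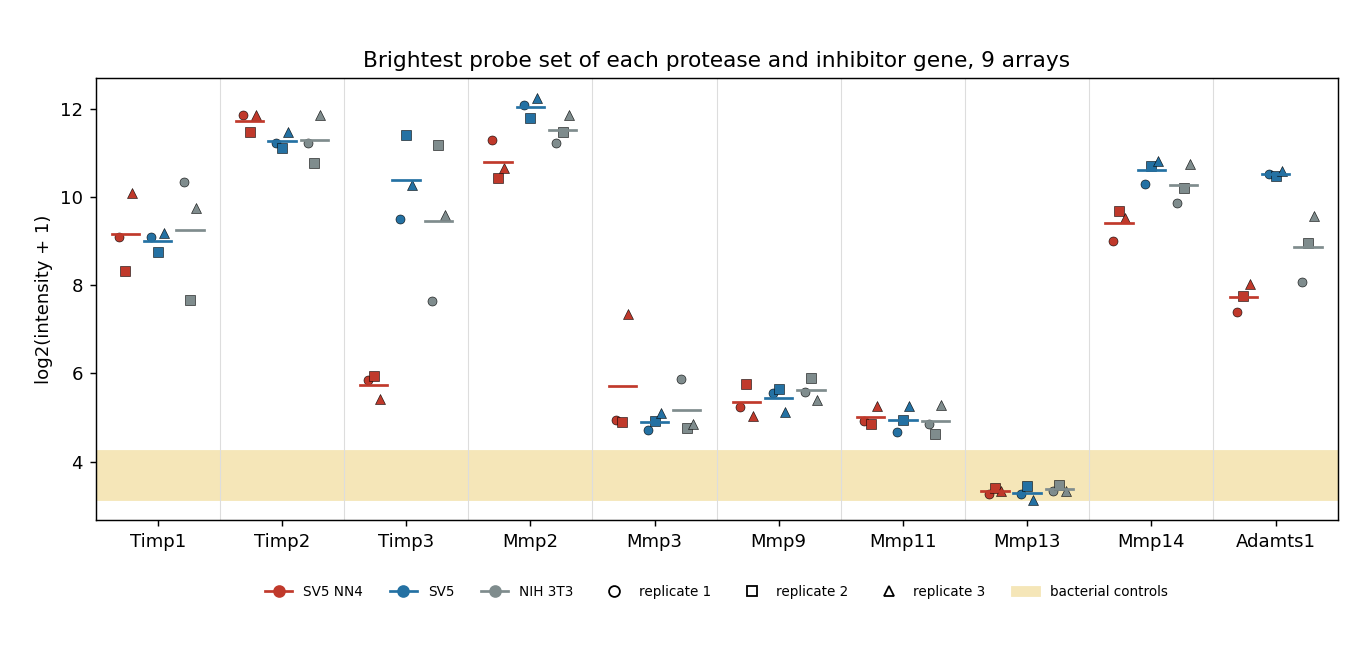
Level of each gene at its brightest probe set as log2(intensity + 1), with 1 point per array, the marker shape giving the replicate number, horizontal lines the mean of 3 arrays and the band the range of the bacterial controls. In SV5 NN4, Timp3, Mmp14 and Adamts1 lie below all SV5 and all NIH 3T3 arrays, and Mmp13 lies within the band on all 9 arrays.

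The inhibitors differed from one another. Timp3 at its brightest probe set, 1449335_at, read 5.86, 5.93 and 5.42 in SV5 NN4 replicates 1, 2 and 3, against 9.5, 11.4 and 10.27 in SV5. All 3 SV5 NN4 arrays were far below all 3 SV5 arrays, though still above the bacterial controls. The SV5 NN4 mean of 5.74 lay below the median probe set, and whether it is Timp3 signal or background was not tested. The difference was -4.65 (SE 0.55, 95% interval -5.94 to -3.37, adjusted p = 0.0208 in limma), a 25.2-fold lower level. The second Timp3 probe set, 1419089_at, read 5.55, 5.69 and 5.04 in SV5 NN4, against 8.85, 8.85 and 9.98 in SV5, a difference of -3.8 (SE 0.36, adjusted p = 0.0112 in limma). The other 2 Timp3 probe sets differed by -1.5 and -0.57 and were not called (adjusted p = 0.187 and 0.19 in limma), although neither overlapped between the lines.

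Timp2, the adaptor in Mmp2 activation as well as an inhibitor, was not called at any of its 6 probe sets. Its brightest, 1460287_at, read 11.84, 11.47 and 11.85 in SV5 NN4, against 11.21, 11.11 and 11.47 in SV5. Each SV5 NN4 array was above its SV5 partner, by 0.63, 0.36 and 0.38, and the mean difference was 0.46 (95% interval 0.055 to 0.86, adjusted p = 0.311 in limma). The other 5 Timp2 probe sets had differences of -0.57 to -0.20 with intervals that reached from -1.49 to 0.49. The probe sets of this gene thus disagreed in sign, and which of them follows the transcript was not tested.

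Timp1, the soluble inhibitor that growth factors and cytokines induce, read 9.09, 8.33 and 10.09 in SV5 NN4, against 9.09, 8.75 and 9.17 in SV5. The lines overlapped, and the pairs gave 0, -0.42 and 0.92. The difference was 0.17 with a 95% interval of -0.86 to 1.19 (adjusted p = 0.971 in limma), which leaves room for a change in either direction.

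**Figure D2:**
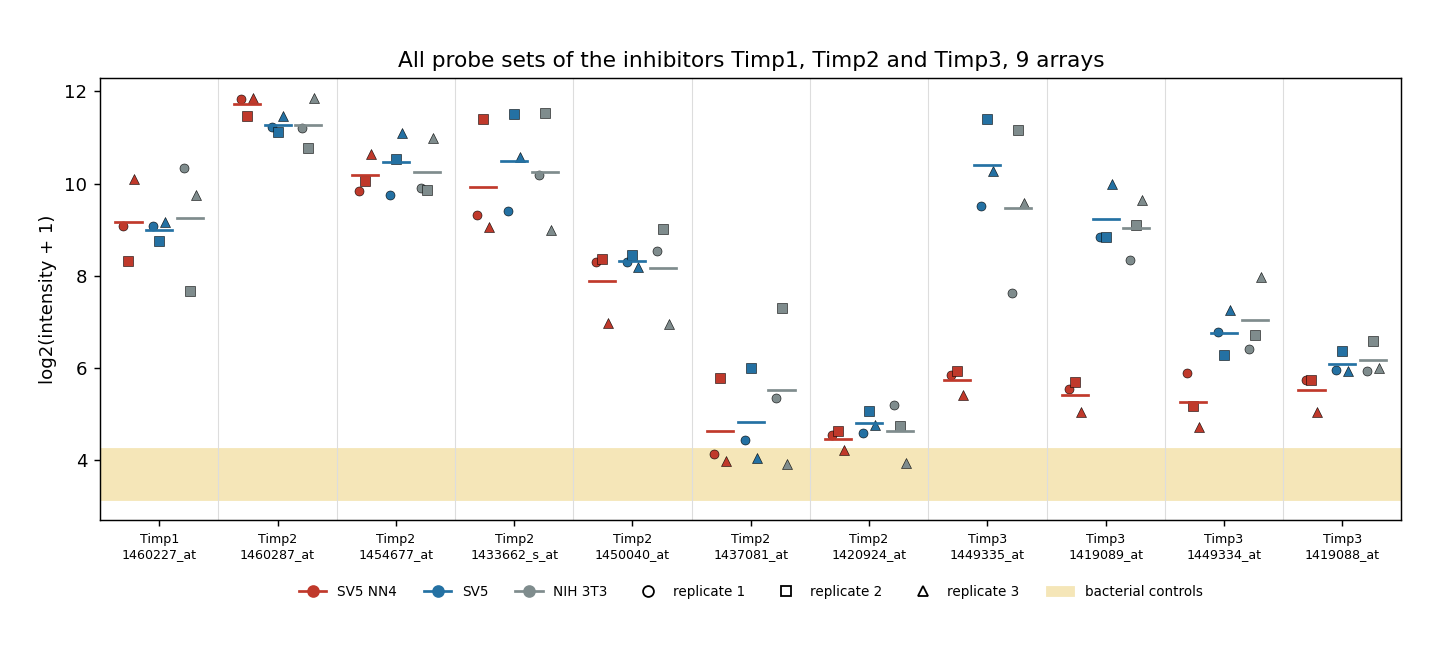
Level of every Timp1, Timp2 and Timp3 probe set as log2(intensity + 1), with 1 point per array, marker shape for the replicate number, horizontal lines for the mean of 3 arrays and the band for the bacterial controls. All 4 Timp3 probe sets are lower in SV5 NN4, while the arrays of several Timp2 probe sets group by replicate number rather than by line.

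Of the proteases, the membrane enzyme Mmp14 fell at its bright probe set 1448383_at, which read 8.99, 9.68 and 9.52 in SV5 NN4, against 10.29, 10.71 and 10.81 in SV5. The pairs gave -1.3, -1.03 and -1.3, and the lines did not overlap. The difference was -1.21 (SE 0.16, adjusted p = 0.0249 in limma), a 2.31-fold lower level. A dim second probe set, 1416572_at, read 5.14, 5.12 and 5.2 in SV5 NN4, against 5.2, 5.22 and 6.9 in SV5. SV5 replicate 3 alone stood apart there, and the difference of -0.62 was not called (adjusted p = 0.631 in limma).

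Mmp2, gelatinase A and the substrate of Mmp14 activation, read 11.29, 10.43 and 10.65 in SV5 NN4 at its brightest probe set 1439364_a_at, against 12.08, 11.79 and 12.24 in SV5. All SV5 NN4 arrays were below all SV5 arrays, with a difference of -1.24 (SE 0.24, 95% interval -1.8 to -0.69) that missed the threshold (adjusted p = 0.0708 in limma). The second Mmp2 probe set gave -1.28 (adjusted p = 0.0959 in limma). Both Mmp2 probe sets were called when only these 2 lines were fitted (adjusted p = 0.0139 and 0.0287 in limma) and without NIH 3T3 replicate 1 (adjusted p = 0.0138 and 0.0276 in limma), with the same differences. Calls over all 22690 probe sets also rose there, from 196 to 1504 and 950. Without SV5 NN4 replicate 1 the second Mmp2 probe set was called at -1.7 (adjusted p = 0.035 in limma). With no replicate block neither was called (adjusted p = 0.335 and 0.528 in limma).

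Mmp9, gelatinase B, was not called at either probe set, with differences of -0.10 and -0.092 and intervals that reached from -0.44 to 0.26. Its brighter probe set read 5.24, 5.76 and 5.04 in SV5 NN4, against 5.56, 5.64 and 5.14 in SV5, which overlap. The stromelysin Mmp3 read 4.94, 4.89 and 7.34 in SV5 NN4, against 4.71, 4.92 and 5.1 in SV5. SV5 NN4 replicate 3 alone was high, and the difference was 0.81 (95% interval -0.54 to 2.17, adjusted p = 0.71 in limma), or -0.028 without that array. Mmp11, stromelysin-3, read 4.92, 4.86 and 5.26 in SV5 NN4, against 4.66, 4.94 and 5.26 in SV5, and differed by 0.059 (95% interval -0.26 to 0.38). The collagenase Mmp13 read 3.26 to 3.4 in SV5 NN4, against 3.14 to 3.45 in SV5, within the bacterial controls on every array, so no level above the floor was measured for it.

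Adamts1 is a secreted protease of the related ADAMTS family that cuts proteoglycans such as versican and aggrecan. It read 7.38, 7.76 and 8.04 in SV5 NN4, against 10.51, 10.46 and 10.57 in SV5. The SV5 arrays lay close together, and every SV5 NN4 array was far below them. The difference was -2.79 (SE 0.24, 95% interval -3.36 to -2.21, adjusted p = 0.00825 in limma), a 6.91-fold lower level.

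**Figure D3:**
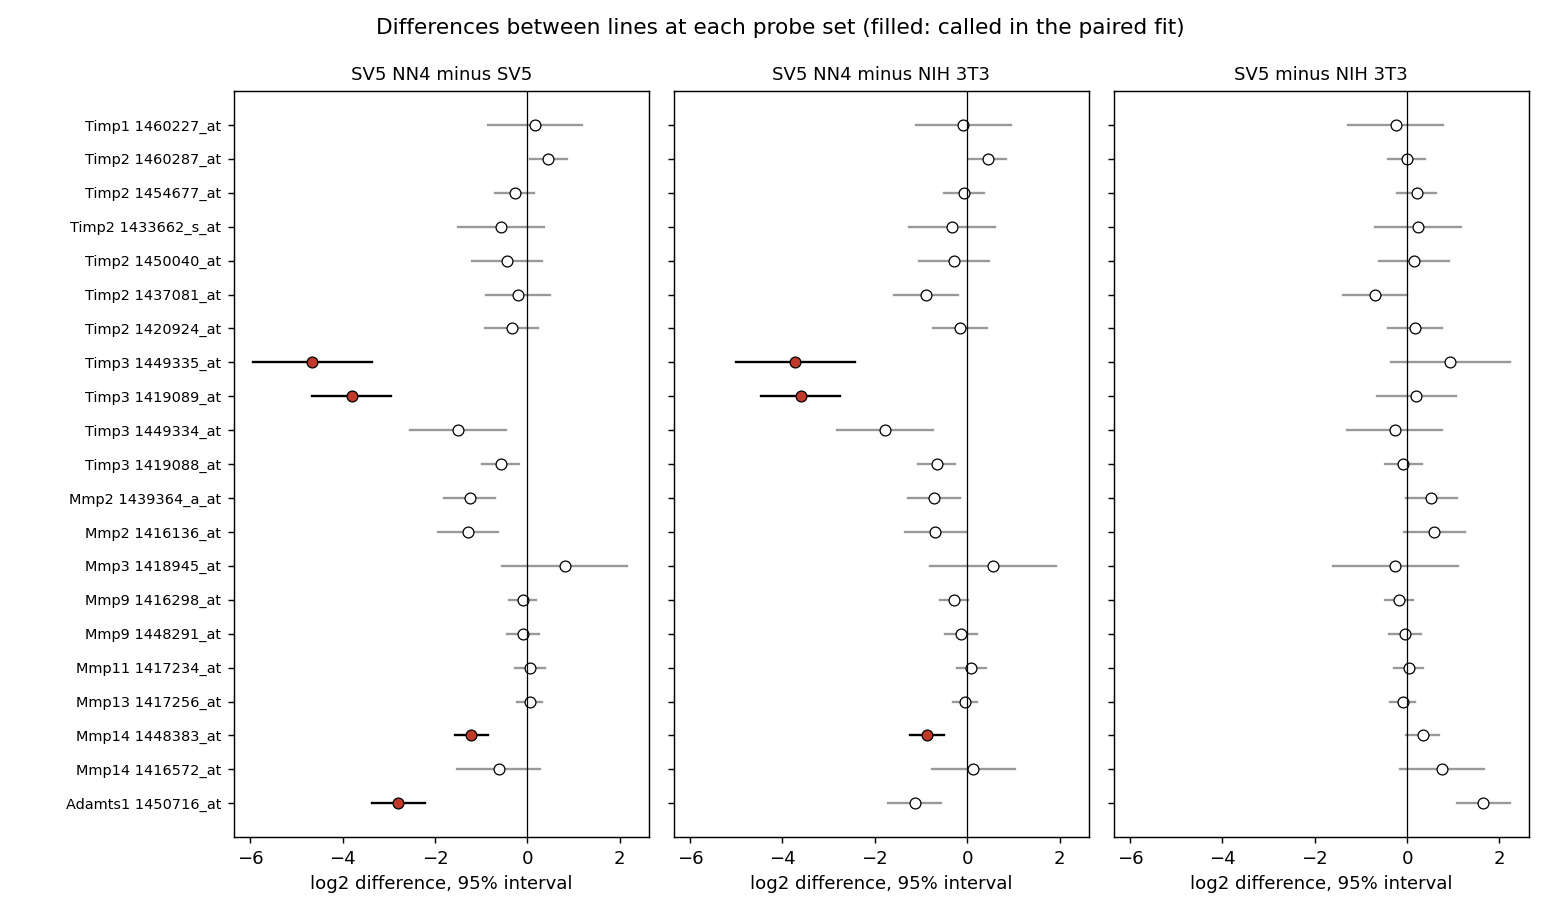
Log2 difference at each of the 21 probe sets with its 95% interval in SV5 NN4 against SV5 (left), SV5 NN4 against NIH 3T3 (middle) and SV5 against NIH 3T3 (right), with filled points for calls in the paired fit. The 4 called probe sets on the left and the 3 in the middle all lie below 0, and none is called on the right.

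In a fit that ignored replicate numbers, limma still called Timp3 at 1419089_at (adjusted p = 0.0173) and Adamts1 (adjusted p = 0.039), but neither Timp3 at 1449335_at (adjusted p = 0.177) nor Mmp14 (adjusted p = 0.435). Averaged over its 2 probe sets, Mmp14 gave -0.91 and was not called (adjusted p = 0.0691 in limma). Omitting any one array never changed a sign: the differences ran -5.39 to -4.07 and -4.13 to -3.27 for the Timp3 probe sets, -1.34 to -1.1 for Mmp14 and -3.01 to -2.51 for Adamts1. The call of Adamts1 was lost without SV5 NN4 replicate 2 or 3 or SV5 replicate 2, and that of Mmp14 without any one of the SV5 NN4 or SV5 arrays. Both Timp3 calls were lost without SV5 NN4 replicate 2 or any one SV5 array, and that of 1449335_at also without SV5 NN4 replicate 3. The highest adjusted p over these omissions was 0.193 in limma. When a whole replicate number was left out, Timp3 at 1449335_at and Adamts1 lost their calls for number 2 or 3. Timp3 at 1419089_at lost its call for number 2, and Mmp14 for any number (highest adjusted p = 0.302 in limma over all of these). The 3′ to 5′ signal ratio, used here to follow RNA integrity, moved with this comparison. RNA integrity itself was not measured. The log2 3′ to 5′ ratio of Actb was higher in SV5 NN4 than in its SV5 partner by 0.34, 0.30 and 1.24. That of Gapdh was higher by 0.21, 0.49 and 0.69. The ratio itself ran from 2.42 in SV5 replicate 3 to 5.06 in NIH 3T3 replicate 3 for Actb. For Gapdh it ran from 2.36 to 5.21 in the same arrays. The 3′ end thus read brighter than the 5′ end on every array. The part of RNA integrity in these differences, or in the disagreement between probe sets of a gene, was not tested.

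SV5 NN4 was also set against NIH 3T3, the untransformed line. Timp3 and Mmp14 fell here too, in a comparison that uses the same SV5 NN4 arrays and so is not independent of the one with SV5. Of the 21 probe sets, 3 fell and 0 rose, against 1.65% of all probe sets called in either direction and 0.516% called lower. Without the replicate block 1 was called, Timp3 at 1419089_at, against 0.0793% of all probe sets. At an unadjusted p under 0.05, 9 were lower and 1 was higher, against 7.1% and 10% of all probe sets. The groups did not overlap at 6 of the 21, against 6.45% of all probe sets.

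Timp3 at 1449335_at read 5.86, 5.93 and 5.42 in SV5 NN4, against 7.63, 11.17 and 9.58 in NIH 3T3. The NIH 3T3 arrays spread widely, yet all lay above the SV5 NN4 arrays. The difference was -3.72 (SE 0.55, adjusted p = 0.0316 in limma). At 1419089_at, which read 5.55, 5.69 and 5.04 in SV5 NN4, against 8.35, 9.1 and 9.63 in NIH 3T3, it was -3.6 (SE 0.36, adjusted p = 0.0122 in limma). Mmp14 at 1448383_at read 8.99, 9.68 and 9.52 in SV5 NN4, against 9.86, 10.19 and 10.75 in NIH 3T3, and its difference of -0.87 (SE 0.16, adjusted p = 0.0467 in limma) passed the threshold narrowly. Its dim probe set differed by 0.13 and was not called.

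Adamts1 read 7.38, 7.76 and 8.04 in SV5 NN4, against 8.07, 8.96 and 9.56 in NIH 3T3. The lines did not overlap, but the difference of -1.14 (SE 0.24) was not called (adjusted p = 0.0748 in limma). Mmp2 overlapped between the lines, and its 2 probe sets gave -0.72 and -0.69 (adjusted p = 0.186 and 0.271 in limma). Timp2 at its brightest probe set gave 0.45 (95% interval 0.044 to 0.85). Its other probe sets gave -0.89 to -0.069, the lowest at 1437081_at (95% interval -1.59 to -0.20), and no Timp2 probe set was called. Timp1 gave -0.084 (95% interval -1.11 to 0.94) and was not called. Mmp3, Mmp9, Mmp11 and Mmp13 gave differences of -0.28 to 0.56 and were not called.

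With only SV5 NN4 and NIH 3T3 fitted, in pairs, 0 of the 21 and 18 of all 22690 probe sets were called. The adjusted p in limma was 0.113 and 0.0574 for the Timp3 probe sets and 0.141 for Mmp14. The Mmp14 call was also lost with a pseudocount of 16, centred arrays, an intensity trend or averaged probe sets, where its difference was -0.37, and that of Timp3 at 1449335_at with a pseudocount of 16. The Mmp14 call held in 1 of 9 omissions of a single array, that of NIH 3T3 replicate 1, with differences of -1.01 to -0.71 (highest adjusted p = 0.253 in limma), and was lost without the replicate block (adjusted p = 0.781). The Timp3 call at 1419089_at was lost without SV5 NN4 replicate 2 or NIH 3T3 replicate 2, over differences of -3.93 to -3.07. That at 1449335_at held only without SV5 NN4 replicate 1 or NIH 3T3 replicate 1, over differences of -4.46 to -3.14 (highest adjusted p = 0.216 in limma), and was lost without the replicate block (adjusted p = 0.392). Leaving out replicate number 2 or 3 in all lines gave 0 calls among the 21 each time, and 1 and 8 over all 22690 probe sets. Without NIH 3T3 replicate 1, calls over all 22690 probe sets rose from 375 to 1239, and 7 of the 21 were called. Among them were Adamts1 at -1.45 (adjusted p = 0.012 in limma) and Mmp2 at -1.0 (adjusted p = 0.0339 in limma). The 3′ to 5′ ratio differed here as well. On the log2 scale, that in SV5 NN4 minus that in its NIH 3T3 partner was -0.18, 0.20 and -1.4 for Actb. For Gapdh it was 0.018, 0.53 and -2.16, and NIH 3T3 replicate 3 was the highest of all 9 arrays in both. The part of RNA integrity in these differences was not tested. Without that array, Timp3 gave -3.55 and -3.39 (adjusted p = 0.0696 and 0.0381 in limma) and Mmp14 -0.71 (adjusted p = 0.0842 in limma). Also without it a dim Timp2 probe set, 1437081_at, was called at -1.33 (adjusted p = 0.0347 in limma).

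Between SV5 and NIH 3T3, which differ by T antigen and by cloning, 0 of the 21 probe sets were called in the paired limma fit and 0 without the block, against 0.0617% and 0.00441% of all probe sets, with 0.0176% called lower in the paired fit. At an unadjusted p under 0.05, 1 was higher and 0 were lower, against 8.56% and 5.65% of all probe sets. That one was Adamts1, which read 10.51, 10.46 and 10.57 in SV5, against 8.07, 8.96 and 9.56 in NIH 3T3, without overlap. Its difference was 1.65 (SE 0.24, 95% interval 1.08 to 2.23, adjusted p = 0.11 in limma), with pairs of 2.44, 1.5 and 1.02. The 3′ to 5′ ratio in SV5 minus that in its NIH 3T3 partner was -0.52, -0.10 and -2.65 for Actb and -0.19, 0.041 and -2.84 for Gapdh. Without NIH 3T3 replicate 3 the Adamts1 difference was 1.91 (adjusted p = 0.0615 in limma), and 0 of the 21 and 3 of all 22690 probe sets were called. Mean Adamts1 levels thus ran highest in SV5, then NIH 3T3, then SV5 NN4, and of the 3 differences that of SV5 NN4 against SV5 was called.

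Mmp2 and Mmp14 had no call, with SV5 above NIH 3T3 by 0.52 and 0.59 at the Mmp2 probe sets and 0.34 and 0.76 at those of Mmp14. For Timp3 the 4 probe sets gave 0.93, 0.20, -0.27 and -0.086, with intervals that reached from -1.31 to 2.22, so SV5 and NIH 3T3 could not be ordered. Timp1 gave -0.25 and the 6 Timp2 probe sets gave -0.69 to 0.24. Of the 21 probe sets, 2 did not overlap between these lines, against 4.55% of all probe sets, and they were Adamts1 and the second Mmp2 probe set, 1416136_at.

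Some members varied mainly by line and others mainly by replicate number. Between lines lay 93.5% of the variance over the 9 arrays for Timp3 at 1419089_at, 89.8% for Adamts1, 81.5% for Timp3 at 1449335_at, 76.8% for Mmp2 at 1439364_a_at and 74.2% for Mmp14 at 1448383_at. For Timp1, 63.8% lay between replicate numbers and 1.72% between lines. Timp2 at 1454677_at had 83.5% between replicate numbers, and Mmp11 had 82%. Timp2 probe set 1433662_s_at shows the pattern, with 9.32, 11.39 and 9.06 in SV5 NN4, 9.4, 11.5 and 10.57 in SV5 and 10.19, 11.54 and 9.0 in NIH 3T3, where replicate 2 was highest in each line.

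**Figure D4:**
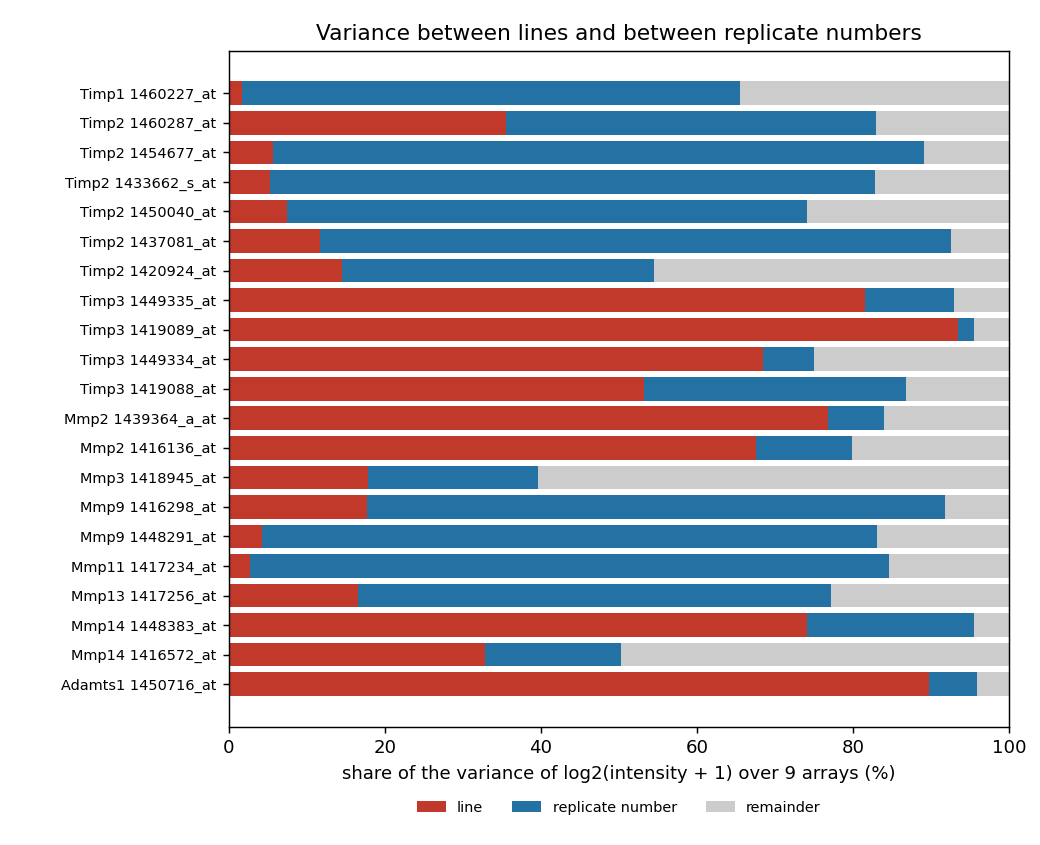
Share of the variance of log2(intensity + 1) over the 9 arrays that lies between lines, between replicate numbers and in the remainder, for each of the 21 probe sets. Line takes the largest share for the Timp3 and Mmp2 probe sets, for Adamts1 and for Mmp14 at 1448383_at, and replicate number takes the largest share for Timp1 and for 5 of the 6 Timp2 probe sets.

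After the mean of each replicate number was subtracted, Timp3, Mmp2, Mmp14 and Adamts1 correlated with each other at r of 0.87 to 0.95 over the 9 arrays, at their brightest probe sets. These are descriptions over arrays that share the same 3 lines. Timp2 at its brightest probe set ran against them, with r of -0.76 to -0.59. The other 3 Timp3 probe sets correlated with the brightest at 0.85 to 0.95, whereas the other 5 Timp2 probe sets correlated with theirs at -0.76 to -0.0032.

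By the same measure, over 7142 genes at or above the median level, the genes most like Timp3 were Fgfr1 (a fibroblast growth factor receptor, r = 0.992), Kdm5b, Itm2b, Col6a2 (a collagen VI chain) and Ifitm3. Most like Adamts1 were Mxra8 (r = 0.995), C1s1 (a complement protease), Ufsp2, Col6a3 and Saraf. Most like Mmp14 were Crtap (a collagen-modifying cofactor, r = 0.988), Cyp1b1, Sucla2, Trp53inp1 and Cdc16. C1s1, for example, had mean levels of 6.44 in SV5 NN4, 9.36 in SV5 and 7.72 in NIH 3T3.

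Other genes of extracellular proteolysis were mostly not called. Their counts are to be read against the 0.864% of all probe sets called in SV5 NN4 against SV5, 1.65% in SV5 NN4 against NIH 3T3 and 0.0617% in SV5 against NIH 3T3. These shares cover bright and dim probe sets, whereas each listed gene was taken at its brightest probe set. Of 14 further metalloprotease and inhibitor genes measured out of 18 listed, 1 fell in SV5 NN4 against each of the other lines, and it was Reck, a membrane-anchored inhibitor of metalloproteases. Reck read 6.81, 7.52 and 7.11 in SV5 NN4, 8.44, 9.06 and 8.9 in SV5, and 8.32, 9.09 and 8.93 in NIH 3T3. SV5 NN4 lay below both other lines on every array. Its difference was -1.66 against SV5 (SE 0.12, adjusted p = 0.00339 in limma) and -1.64 against NIH 3T3 (adjusted p = 0.00402 in limma), while SV5 and NIH 3T3 differed by 0.02 (95% interval -0.26 to 0.30). The call against SV5 held in 9 of 9 omissions of a single array and that against NIH 3T3 was lost without SV5 NN4 replicate 2 (adjusted p = 0.0512) and with only those 2 lines fitted (adjusted p = 0.0574). Both calls were lost when replicate number 2 or 3 was left out in all lines (highest adjusted p = 0.221 and 0.25 in limma). Without the replicate block neither was called (adjusted p = 0.172 and 0.219). The 12 other Mmp genes had line means of 3.58 to 6.79, and 0 were called in any of the 3 comparisons by limma.

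Of 8 measured genes of plasminogen activation, 1 fell in SV5 NN4 against SV5, Plat, the tissue plasminogen activator, at 6.73 ± 0.41 in SV5 NN4 and 7.93 ± 0.21 in SV5 (SD, n = 3 each, adjusted p = 0.0484 in limma). The Plat call was lost without any one SV5 NN4 or SV5 array or NIH 3T3 replicate 2 (differences of -1.32 to -0.95, highest adjusted p = 0.216), and with no replicate block, a pseudocount of 16, centred arrays or an intensity trend. Of 8 convertase and uptake genes, Bsg, the metalloprotease inducer basigin, rose in SV5 NN4 against NIH 3T3 by 1.45 (adjusted p = 0.0145 in limma), at 9.42, 8.78 and 10.77 in SV5 NN4, against 7.82, 7.47 and 9.32 in NIH 3T3. The 2 lines overlapped, though each SV5 NN4 array was above its NIH 3T3 partner. Bsg was about as high in SV5, at 9.02, 9.14 and 10.75, with a mean of 9.64 against 9.66 in SV5 NN4, though SV5 against NIH 3T3 was not called. Of 12 cathepsins, the collagen-degrading protease Ctsk fell in SV5 NN4 against NIH 3T3, at 6.32 ± 0.33 in SV5 NN4 and 7.77 ± 0.088 in NIH 3T3 (SD, n = 3 each, adjusted p = 0.0364 in limma). The Bsg and Ctsk calls were lost without any one SV5 NN4 array or NIH 3T3 replicate 2, over differences of 1.32 to 1.58 and -1.64 to -1.25, that of Ctsk also without SV5 replicate 1 or NIH 3T3 replicate 3, and both without the replicate block (adjusted p = 1 and 0.307). With only those 2 lines fitted neither was called (adjusted p = 0.0614 and 0.0711), nor Bsg with a random replicate effect (adjusted p = 0.0518) nor Ctsk with a pseudocount of 16 (adjusted p = 0.0528). Of the 9 ADAM and 6 ADAMTS genes measured beside Adamts1, 0 were called in any of the 3 comparisons by limma, and at an unadjusted p under 0.05, 2 of each list were lower in SV5 NN4 than in SV5, against 6.34% of all probe sets.

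Of 12 AP-1 and Ets factors, 0 were called by limma in SV5 NN4 against SV5, where 2 were higher and 1 was lower at an unadjusted p under 0.05, against 6.64% and 6.34% of all probe sets. Jund and Atf3 fell against NIH 3T3, with differences of -0.84 and -1.11 (adjusted p = 0.0456 and 0.0401 in limma). Atf3 was dim, at 4.70, 4.45 and 4.17 in SV5 NN4, the last within the bacterial controls, against 6.07, 5.68 and 4.91 in NIH 3T3. Both calls were lost without any one SV5 NN4 or SV5 array or NIH 3T3 replicate 2, over differences of -0.95 to -0.69 and -1.26 to -0.94, that of Jund also without NIH 3T3 replicate 3, and both without the replicate block (adjusted p = 0.852 and 0.672). With only those 2 lines fitted neither was called (adjusted p = 0.14 and 0.106), nor Jund with centred arrays or an intensity trend, nor Atf3 with a pseudocount of 16 or quantile normalization. Fosl1, an AP-1 subunit chosen here after its values were seen, read 8.01 ± 0.22 in SV5 NN4 and 6.88 ± 0.23 in SV5 (SD, n = 3 each), a difference of 1.12 that was not called (adjusted p = 0.0991 in limma). The 12 factors had a median difference of -0.11 in that comparison.

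Among the fibroblast markers, 3 of 10 fell in SV5 NN4 against SV5, where 0.555% of all probe sets were called lower, and the 10 had a median difference of -0.85. They were Pdgfra, a growth factor receptor, at -2.1, the surface glycoprotein Thy1 at -1.39 and the collagen Col3a1 at -1.05 (adjusted p = 0.00317, 0.0056 and 0.0336 in limma). Without the replicate block their adjusted p was 0.167, 0.0231 and 0.315. Against NIH 3T3, where 0.516% were called lower, 2 of the 10 fell, with a median of -0.39 over the list. They were Pdgfra at -1.2 and Thy1 at -2.09 (adjusted p = 0.0217 and 0.00178 in limma, or 0.659 and 0.00143 without the replicate block). Each marker was taken at its brightest probe set, whereas these shares cover dim probe sets too. A fit of only the 11345 probe sets at or above the median level called 177 lower in SV5 NN4 against SV5. Against NIH 3T3 it called 137 lower. The part of the wider differences among these markers in the member values was not tested.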

How the data were processed

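Total RNA of 3 arrays per line was labelled with the Affymetrix one-cycle kit, per the labels' protocols. The authors deposited intensity values on a linear scale. RMA is the method named by the submitters' processing notes, without its settings. Upper quartiles differ between arrays. Groups and replicate numbers were read from the sample titles. No label says whether replicates were separate cultures, so the p-values reflect array-to-array spread only, possibly technical.

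The deposited intensity values were analysed as log2(intensity + 1), which understates changes of dim probe sets. The platform annotation gave 1 symbol to 20393 probe sets, several to 691 and none to 1606. Differences were fitted with limma 3.58.1 in R 4.3.3 (lmFit, eBayes) on all 9 arrays, with replicate number as a fixed block. After subtracting group means, the 9 between-line pairs with equal numbers had r of 0.26 to 0.84 and the 18 with unequal numbers -0.73 to 0.11. Among the pairs with equal numbers, NIH 3T3 replicate 1 had the lowest r, 0.26 with SV5 and 0.33 with SV5 NN4. The pairing by replicate number was inferred from the values, as no label states it.

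All members were named. From the other lists, genes with a called probe set were named, each at its brightest probe set, and for each called member the 5 genes of highest correlation. Fosl1 was named outside this rule. The members, lists, tests and alternatives were chosen with earlier results of these data known. Alternatives are given in the closing section.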

Additional observations from a re-analysis of the deposited data

How the results depend on the processing

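The number of calls among the 21 probe sets depended on the fit. For SV5 NN4 against SV5, 4 became 2 with no replicate block and 7 with only these lines fitted. After averaging each gene's probe sets, 2 of 10 genes were called, against 199 of all 12394 genes. For SV5 NN4 against NIH 3T3, 3 became 1 with no replicate block and 0 with only these lines fitted. Averaging called 1 of 10 genes, against 312 of all 12394 genes. A pseudocount of 16 called 1 of the 21 probe sets, against 262 of all 22690. Omitting an array or a whole replicate number gave 0 to 6 for SV5 NN4 against SV5 and 0 to 7 for SV5 NN4 against NIH 3T3, and for SV5 against NIH 3T3 it gave 0 each time. Over all probe sets, calls for SV5 NN4 against SV5, SV5 NN4 against NIH 3T3 and SV5 against NIH 3T3 numbered 196, 375 and 14, then 19, 18 and 1 with no replicate block and 1504, 18 and 0 with only 2 lines fitted, and omissions gave 2 to 950, 1 to 1239 and 0 to 49. For SV5 against NIH 3T3 a random replicate effect gave 3, a pseudocount of 16 0, centring 0, quantile normalization 0, an intensity trend 6 and averaged probe sets 1. The cause of these shifts was not tested. No called difference of a member, or of Reck, Plat, Bsg, Ctsk, Jund or Atf3, changed sign under any alternative run. Fits with no replicate block, a random replicate effect or only 2 lines return the same differences, so no sign could change there. For Pdgfra, Thy1 and Col3a1 the only alternative run was the fit with no replicate block.

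Some uncalled differences changed sign. Averaging each gene's probe sets gave Timp2 -0.23 for SV5 NN4 against SV5, -0.21 for SV5 NN4 against NIH 3T3 and 0.012 for SV5 against NIH 3T3. Quantile normalization gave -0.018 for Timp2 at 1450040_at and 0.026 for Mmp9 at 1448291_at in SV5 against NIH 3T3. The rest changed sign when arrays were omitted. For SV5 NN4 against SV5 they spanned -0.21 to 0.64 for Timp1 at 1460227_at, -0.028 to 1.33 for Mmp3 at 1418945_at, -0.047 to 0.17 for Mmp11 at 1417234_at, -0.20 to 0.058 for Mmp9 at 1448291_at, -0.95 to 0.00065 for Timp2 at 1433662_s_at, -0.70 to 0.035 for Timp2 at 1450040_at, -0.027 to 0.10 for Mmp13 at 1417256_at and -0.21 to 0.0098 for Mmp9 at 1416298_at. For SV5 NN4 against NIH 3T3 they spanned -0.60 to 0.50 for Timp1 at 1460227_at, -0.24 to 0.38 for Mmp14 at 1416572_at, -0.25 to 0.066 for Timp2 at 1454677_at, -0.41 to 1.31 for Mmp3 at 1418945_at, -0.75 to 0.077 for Timp2 at 1433662_s_at, -0.44 to 0.16 for Timp2 at 1420924_at and -0.013 to 0.16 for Mmp11 at 1417234_at. For SV5 against NIH 3T3 they spanned -0.19 to 0.19 for Timp2 at 1460287_at, -0.11 to 0.15 for Mmp11 at 1417234_at, -0.91 to 0.29 for Timp1 at 1460227_at, -0.42 to 0.76 for Timp2 at 1433662_s_at, -0.40 to 0.50 for Timp2 at 1450040_at, -0.14 to 0.57 for Timp2 at 1420924_at, -0.13 to 0.47 for Timp3 at 1419089_at, -0.22 to 0.11 for Mmp9 at 1448291_at, -0.86 to 0.35 for Mmp3 at 1418945_at, -0.74 to 0.21 for Timp3 at 1449334_at and -0.025 to 0.39 for Timp2 at 1454677_at. With 3 arrays per line, differences near 0 and probe sets near the floor have no settled sign.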
